A study of Mus musculus with 12 samples.

Results

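Proximal T cell receptor signalling was followed here through 9 genes whose proteins act next to the receptor: the kinases Lck, Fyn and Zap70, the adaptors Lat, Lcp2 and Grap2, the phosphatases Ptprc and Ptpn22, and the membrane glycoprotein Thy1. They were taken by gene symbol, and all 9 had a line among the 45796 genes of the table. Of the 9, 8 reached a mean normalized value of 5 over the 12 libraries and were tested with 1571 genes in all; Zap70 was too low and is described by its values only. In wild-type cells Lck, Grap2 and Ptpn22 fell after imiquimod, by 3.82, 2.96 and 3.64 on the log2 scale, and under imiquimod Lck was higher in NF-kB1-deficient than in wild-type cells by 3.04. A normalized value is the deposited read number of a gene on the linear scale, scaled per library by the authors. Fold changes are differences of log2(normalized value + 1) with their moderated SE, and a gene was called, or said to have changed, at a Benjamini-Hochberg adjusted p under 0.05 in limma. The wild-type call held in 14 of 14 alternative settings for Lck, 9 of 14 for Grap2 and 4 of 13 for Ptpn22. The Lck call between genotypes under imiquimod held in 7 of 14. Tested directly, the difference between the imiquimod responses of the genotypes was called for 0 of the 8 (Lck adjusted p = 0.290, limma).

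RNA came from Vg4+Vd4+ gamma delta T cells of the skin-draining lymph nodes of C57BL/6 mice, a T cell subset named after the V segments of its receptor. Wild-type or NF-kB1-deficient mice had received a sham cream or a cream with imiquimod, a Toll-like receptor agonist that inflames mouse skin, with 3 libraries in each of the 4 groups. NF-kB1 is the precursor of the p50 subunit of the NF-kB transcription factors; the labels do not give the allele, the dose, the duration, the age of the mice or whether 1 library stands for 1 animal. P-values therefore measure the spread between these libraries, which may be technical.

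As background, a T cell receptor has no kinase of its own. The Src family kinases Lck and Fyn phosphorylate the CD3 and zeta chains, the kinase Zap70 binds there, and it phosphorylates the membrane adaptor Lat and the cytosolic adaptor Lcp2 (SLP-76), which Grap2 (Gads) joins to each other. Ptprc (CD45) removes the inhibitory phosphate of Lck and Fyn, whereas Ptpn22 removes their activating phosphate and damps the signal. Thy1 is a glycolipid-anchored surface protein of mouse T cells. In gamma delta T cells the strength of this signal is known to bear on which cytokines the cells make.

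Sequences before RefSeq starts of Lck, Grap2 and Ptpn22 are shown because these were the members that passed the test. Each is the 250 bases before a RefSeq transcription start in GRCm38.p6, read 5′ to 3′ on the gene's own strand, with capitals marking an ETS core (CAGGAA or CCGGAA) or a RUNX core (TGTGGT), searched on both strands. Lck has the known pair of promoters, of which the first printed is the upstream and the second the downstream one.
Lck, chr4:129573642-129573891, minus strand: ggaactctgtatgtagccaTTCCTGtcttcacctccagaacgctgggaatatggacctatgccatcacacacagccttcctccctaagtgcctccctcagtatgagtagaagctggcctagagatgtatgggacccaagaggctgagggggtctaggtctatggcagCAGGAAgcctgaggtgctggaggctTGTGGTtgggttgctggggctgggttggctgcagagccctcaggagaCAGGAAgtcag
Lck, chr4:129558373-129558622, minus strand: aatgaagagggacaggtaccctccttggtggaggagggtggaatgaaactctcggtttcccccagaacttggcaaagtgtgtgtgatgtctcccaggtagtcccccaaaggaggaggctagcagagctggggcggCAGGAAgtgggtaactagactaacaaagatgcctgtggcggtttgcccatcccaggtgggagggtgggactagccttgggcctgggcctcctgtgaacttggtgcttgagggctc
Grap2, chr15:80623233-80623482, plus strand: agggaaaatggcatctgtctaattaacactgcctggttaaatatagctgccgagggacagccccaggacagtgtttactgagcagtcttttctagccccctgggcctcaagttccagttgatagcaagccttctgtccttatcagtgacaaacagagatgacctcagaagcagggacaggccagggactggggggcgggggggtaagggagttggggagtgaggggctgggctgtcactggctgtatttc
Ptpn22, chr3:103860027-103860276, plus strand: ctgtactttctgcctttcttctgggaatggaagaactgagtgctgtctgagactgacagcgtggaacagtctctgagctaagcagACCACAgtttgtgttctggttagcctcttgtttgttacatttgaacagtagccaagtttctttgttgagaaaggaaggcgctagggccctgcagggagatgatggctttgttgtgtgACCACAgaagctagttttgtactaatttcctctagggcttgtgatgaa

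The upstream Lck window held 3 ETS cores and 1 RUNX core, the downstream one 1 ETS core, the printed Ptpn22 window 2 RUNX cores and the Grap2 window neither. A second Ptpn22 window, not printed (chr3:103859545-103859794), held neither core. The Grap2 window and both Ptpn22 windows lie inside their genes, which begin at 80572597 and 103856575, before internal starts. The sequence before the first base of Grap2 and of Ptpn22 was not searched. RefSeq gave 13 such windows for 8 members. An ETS core stood in 7 of the 13 and in 35.1% of all 32851 windows of that length (the pair of Ptprc windows overlap and share their core, so 1 core counts in both), and a RUNX core in 3 of the 13 and in 14.0% of all. The NF-kB site, searched as the kappa B consensus, was in 0 of the 13 windows and in 7.25% of all. A match is a string of letters, not a bound site, and the libraries, which read the other end of the transcript, do not tell which start was used.

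Libraries were shallow. Estimated reads on genes ran from 20507 (wild-type imiquimod replicate 3) to 69454 per library, and the 9 genes together held 41.0 to 427 of them. Under imiquimod the genotypes did not overlap in depth, with 35154, 35611 and 20507 reads in wild-type and 67042, 45957 and 51153 in NF-kB1-deficient libraries. A single read was worth 0.488 to 1.98 normalized units. Nfkb1 itself ran from 0 to 21.0 and its 4 groups overlapped; where the allele alters it is not given, so tags from its 3' end check nothing. Of the markers of the sorted cells, Tcrd and Tcrg were above 0 in all 12 libraries, while Cd3e and Cd3g were each at 0 in 5. Of the 15 receptor and CD3 genes, 8 were at 0 in every library, among them Trdc and the segments Tcrg-V4 and Trdv4, so the V segments named by the labels were not checked by these values. Beta chain RNA (Tcrb) stood at 57.4 to 103 in all 12. Tcra was above 0 in 11 of 12 (at most 14.2), Cd8b1 reached 17.3 (NF-kB1-deficient sham replicate 1) and Cd8a 2.59, and Cd4 was at 0 throughout, as were the constant segments Trac, Trbc1 and Trbc2. Markers of B cells were at 0 in every library, and those of erythroid cells summed to 50.6 in NF-kB1-deficient imiquimod replicate 3 and to 0 to 4.76 in the other 11.

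**Figure D1:**
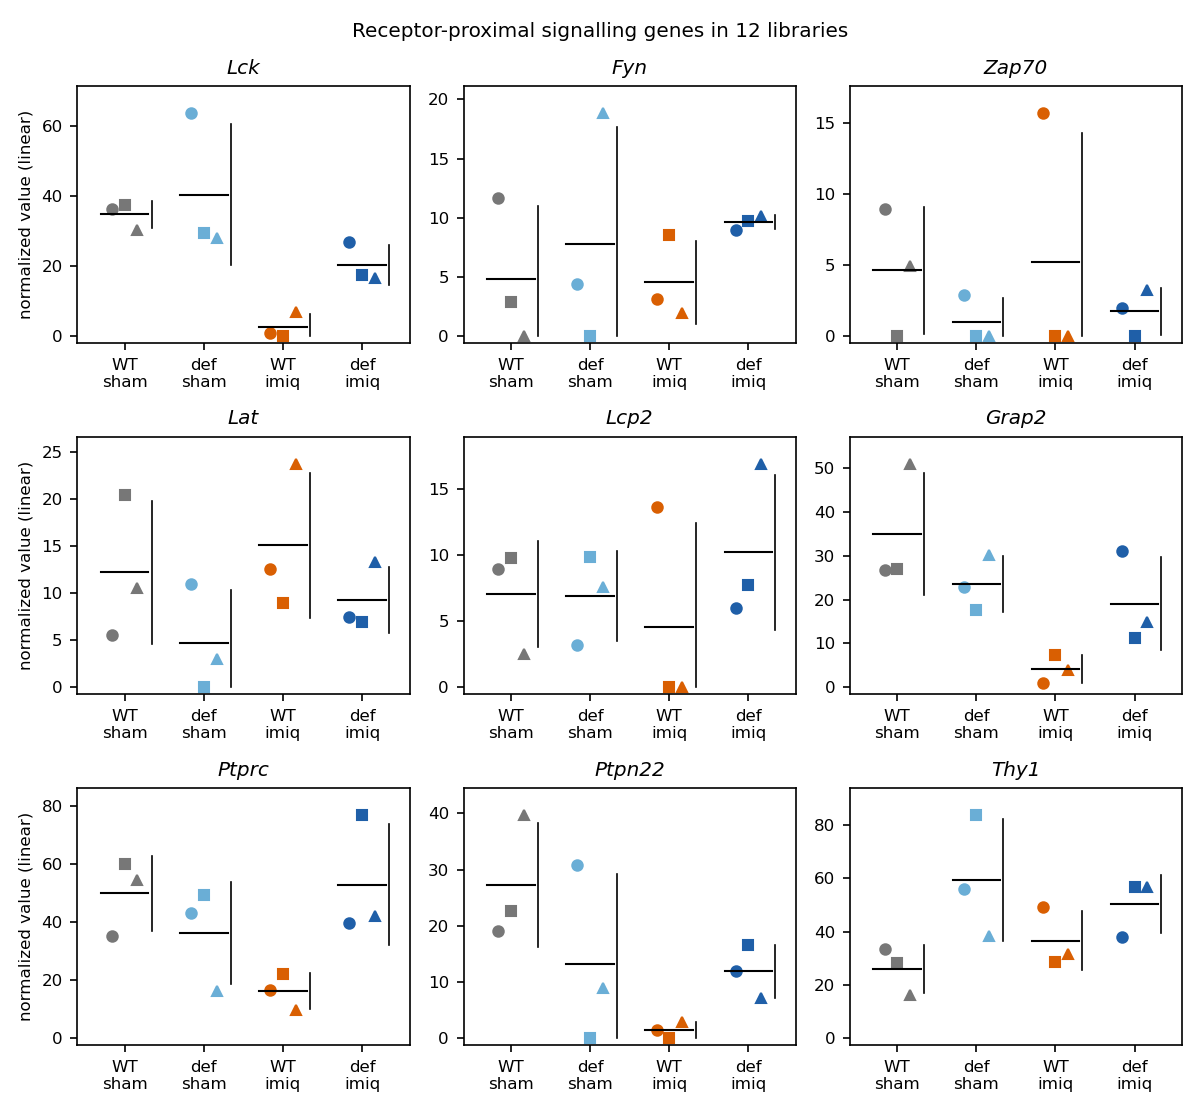
Normalized value (linear scale) of the 9 genes in each of the 12 libraries; circles, squares and triangles are replicates 1, 2 and 3, horizontal lines group means and vertical lines 1 SD to each side, cut at 0. WT, wild type; def, NF-kB1 deficient; imiq, imiquimod. For Lck, Grap2, Ptprc and Ptpn22 all 3 wild-type imiquimod libraries lie below all 3 wild-type sham libraries.

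Lck (Entrez 16818; GRCm38.p6 chromosome 4, 129548344 to 129573641, minus strand, protein coding), the kinase that starts the cascade, stood at normalized values of 36.5, 37.6 and 30.4 in wild-type cells under sham and at 63.8, 29.6 and 28.1 in NF-kB1-deficient cells under sham. After imiquimod it was at 1.05, 0 and 6.93 in wild-type and at 26.8, 17.6 and 16.6 in NF-kB1-deficient cells. The 3 wild-type imiquimod libraries were the lowest of all 12, and the 3 NF-kB1-deficient imiquimod libraries lay between them and every sham library. In reads, the wild-type imiquimod values rest on about 1 read, 0 reads and 3.50 reads.

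The group means of Lck were 34.8 ± 3.84 and 40.5 ± 20.2 in wild-type and NF-kB1-deficient sham cells, and 2.66 ± 3.74 and 20.3 ± 5.64 in wild-type and NF-kB1-deficient imiquimod cells (SD, n = 3). Lck fell in wild-type cells after imiquimod, with a log2 fold change of -3.82 ± 0.76 (SE; 95% interval -5.32 to -2.31; adjusted p = 0.000290, limma). Among NF-kB1-deficient cells the fold change was -0.89 ± 0.76 (-2.39 to 0.62; adjusted p = 0.996), although these groups did not overlap either. Under sham the genotypes differed by 0.11 (-1.39 to 1.62; adjusted p = 0.995), and under imiquimod Lck was higher in NF-kB1-deficient cells by 3.04 ± 0.76 (1.54 to 4.55; adjusted p = 0.0152). The wild-type fall remained past the threshold in all 14 alternative settings. The genotype difference under imiquimod did not: without NF-kB1-deficient imiquimod replicate 1, 2 or 3 its adjusted p was 0.105, 0.0875 or 0.0526.

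Fyn (Entrez 14360; chromosome 10, 39369743 to 39565381, plus strand), the other Src kinase of the list, was at 11.7, 2.93 and 0 in wild-type sham, 4.45, 0 and 18.9 in NF-kB1-deficient sham, 3.14, 8.54 and 1.98 in wild-type imiquimod and 9.01, 9.78 and 10.1 in NF-kB1-deficient imiquimod libraries. Both sham groups held a library at 0 and spread widely, and the NF-kB1-deficient imiquimod libraries lay close together, above all 3 wild-type imiquimod libraries. Its fold change after imiquimod was 0.41 ± 1.18 in wild-type (-1.92 to 2.74; adjusted p = 0.876) and 1.16 ± 1.18 in NF-kB1-deficient cells (adjusted p = 0.996). Between genotypes it differed by 0.37 under sham (adjusted p = 0.979) and by 1.116 under imiquimod (-1.21 to 3.44; adjusted p = 0.712). An antisense gene, Gm16365, overlaps the last 1000 bases of Fyn, and whether strand was used in counting is not given.

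Zap70 (Entrez 22637; chromosome 1, 36761798 to 36782821, plus strand), the kinase recruited to the phosphorylated chains, averaged 3.15 over the libraries. It was at 8.94, 0 and 4.97 in wild-type sham, 2.94, 0 and 0 in NF-kB1-deficient sham, 15.7, 0 and 0 in wild-type imiquimod and 2.003, 0 and 3.24 in NF-kB1-deficient imiquimod libraries. Every group held a library at 0 and the groups overlapped. The other kinases of both families were scarcely read: of 7 Src and Syk family genes 0 could be tested, Syk, the relative of Zap70, was at 0 in all 12 libraries, and Blk, a Src kinase of B cells and some gamma delta T cells, was above 0 in wild-type imiquimod replicate 2 (11.6) and NF-kB1-deficient imiquimod replicate 3 (2.59).

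Grap2 (Entrez 17444; chromosome 15, 80572597 to 80652854, plus strand), the adaptor between Lat and Lcp2, stood at 26.8, 26.8 and 50.9 in wild-type sham and at 22.8, 17.5 and 30.2 in NF-kB1-deficient sham libraries. After imiquimod it was at 1.05, 7.37 and 3.96 in wild-type and at 31.05, 11.2 and 14.9 in NF-kB1-deficient cells. As for Lck, the wild-type imiquimod libraries were the 3 lowest. Their values rest on about 1, 7 and 2 reads. The NF-kB1-deficient imiquimod libraries overlapped both sham groups.

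Mean values of Grap2 were 34.9 ± 13.9 in wild-type sham and 4.13 ± 3.16 in wild-type imiquimod libraries, against 23.5 ± 6.37 and 19.0 ± 10.6 in the NF-kB1-deficient groups (SD, n = 3). Its fold change was -2.96 ± 0.77 in wild-type cells (95% interval -4.48 to -1.45; adjusted p = 0.0131, limma) and -0.38 ± 0.77 in NF-kB1-deficient cells (-1.90 to 1.13; adjusted p = 0.996). The genotypes differed by 2.06 ± 0.77 under imiquimod (0.55 to 3.58; adjusted p = 0.163), with groups that did not overlap, and by -0.52 under sham (adjusted p = 0.978). Without wild-type sham replicate 3 or wild-type imiquimod replicate 1 the adjusted p of the wild-type fall was 0.105 or 0.0575. The call was lost also with no filter on low values, with only the libraries compared in the fit and without trend or robust. It held in 9 of 14 alternative settings.

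Lat (Entrez 16797; chromosome 7, 126363827 to 126369705, minus strand), the membrane scaffold, was at 5.59, 20.5 and 10.6 in wild-type sham, 11.03, 0 and 2.996 in NF-kB1-deficient sham, 12.6, 8.95 and 23.8 in wild-type imiquimod and 7.51, 6.93 and 13.3 in NF-kB1-deficient imiquimod libraries. All 4 groups overlapped. Its fold change after imiquimod was 0.34 ± 1.04 in wild-type (-1.71 to 2.40; adjusted p = 0.885) and 1.44 ± 1.04 in NF-kB1-deficient cells (-0.61 to 3.50; adjusted p = 0.996). The genotypes differed by -1.70 under sham (-3.75 to 0.36; adjusted p = 0.931) and by -0.60 under imiquimod (adjusted p = 0.837). These intervals are wide, and the values do not exclude a change within them.

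Lcp2 (Entrez 16822; chromosome 11, 34046928 to 34092281, plus strand), the cytosolic scaffold, was at 8.94, 9.76 and 2.48 in wild-type sham, 3.19, 9.85 and 7.55 in NF-kB1-deficient sham, 13.6, 0 and 0 in wild-type imiquimod and 6.01, 7.68 and 16.9 in NF-kB1-deficient imiquimod libraries. Wild-type imiquimod was thus the group with 2 libraries at 0 and also held the second highest value. The fold change was -1.56 ± 1.15 in wild-type cells (-3.82 to 0.71; adjusted p = 0.476) and 0.49 ± 1.15 in NF-kB1-deficient cells (adjusted p = 0.996). Between genotypes it differed by 0.02 under sham (adjusted p = 0.999) and by 2.07 ± 1.15 under imiquimod (-0.19 to 4.34; adjusted p = 0.411). A gene on the other strand, 4930469K13Rik, overlaps its last 1000 bases.

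Ptprc (Entrez 19264; chromosome 1, 138062859 to 138175756, minus strand), the phosphatase that primes Lck, stood at 35.2, 59.9 and 54.5 in wild-type sham and 43.0, 49.3 and 16.4 in NF-kB1-deficient sham libraries. After imiquimod it was at 16.8, 22.1 and 9.90 in wild-type and at 39.6, 76.9 and 42.2 in NF-kB1-deficient cells. The wild-type imiquimod libraries lay below all those of the wild-type sham and NF-kB1-deficient imiquimod groups, and they overlapped the NF-kB1-deficient sham group through its replicate 3.

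Mean values of Ptprc were 49.9 ± 13.0 in wild-type sham, 16.3 ± 6.12 in wild-type imiquimod, 36.2 ± 17.5 in NF-kB1-deficient sham and 52.9 ± 20.9 in NF-kB1-deficient imiquimod libraries (SD, n = 3). The fold change after imiquimod was -1.59 ± 0.51 in wild-type cells (95% interval -2.60 to -0.58; adjusted p = 0.0628, limma) and 0.61 ± 0.51 in NF-kB1-deficient cells (-0.40 to 1.62; adjusted p = 0.996). Between genotypes it differed by 1.64 ± 0.51 under imiquimod (0.63 to 2.65; adjusted p = 0.0770). Under sham the genotypes differed by -0.56 (adjusted p = 0.947). The wild-type response and the genotype difference under imiquimod each passed the test in 3 of 14 alternative settings. Their adjusted p ran from 0.0293 to 0.627 and from 0.0238 to 0.752, and without wild-type imiquimod replicate 2 it was 0.0356 and 0.0405. The 3' tags do not tell the CD45 isoforms apart.

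Ptpn22 (Entrez 19260; chromosome 3, 103856575 to 103912252, plus strand), the inhibitory phosphatase, stood at 19.2, 22.7 and 39.7 in wild-type sham and at 1.53, 0 and 2.96 in wild-type imiquimod libraries. In NF-kB1-deficient cells it was at 30.9, 0 and 8.99 under sham and at 12.02, 16.6 and 7.14 under imiquimod. In reads, the wild-type imiquimod values rest on about 1.46, 0 and 1.49 reads. The wild-type sham and wild-type imiquimod libraries did not overlap, and the NF-kB1-deficient sham libraries spread from 0 to above every library but wild-type sham replicate 3. Mean values were 27.2 ± 11.01 in wild-type sham and 1.49 ± 1.48 in wild-type imiquimod libraries, 13.3 ± 15.9 in NF-kB1-deficient sham and 11.9 ± 4.72 in NF-kB1-deficient imiquimod libraries (SD, n = 3).

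Ptpn22 fell in wild-type cells after imiquimod, with a log2 fold change of -3.64 ± 1.07 (95% interval -5.76 to -1.52; adjusted p = 0.0358, limma). In NF-kB1-deficient cells the fold change was 0.85 ± 1.07 (-1.27 to 2.97; adjusted p = 0.996). Under sham the genotypes differed by -1.98 ± 1.07 (adjusted p = 0.884) and under imiquimod by 2.51 ± 1.07 (0.39 to 4.63; adjusted p = 0.242). The wild-type call depended on single libraries and held in 4 of 13 alternative settings. With 1 wild-type sham library left out the adjusted p was 0.0680 (replicate 1), 0.0874 (replicate 2) or 0.144 (replicate 3), without wild-type imiquimod replicate 1 or 2 it was 0.0570 or 0.0895, and the call was lost also with a pseudocount of 0.1 (0.139).

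Thy1 (Entrez 21838; chromosome 9, 44043384 to 44048579, plus strand) was at 33.5, 28.4 and 16.1 in wild-type sham, 56.0, 83.8 and 38.3 in NF-kB1-deficient sham, 49.3, 28.7 and 31.7 in wild-type imiquimod and 38.0, 56.6 and 56.6 in NF-kB1-deficient imiquimod libraries. It was above 0 in all 12 libraries, and its wild-type imiquimod libraries lay among the others. Its fold change after imiquimod was 0.50 ± 0.47 in wild-type (-0.43 to 1.43; adjusted p = 0.591) and -0.18 ± 0.47 in NF-kB1-deficient cells (-1.11 to 0.74; adjusted p = 0.996). Under sham all 3 NF-kB1-deficient libraries lay above all 3 wild-type ones, by 1.15 ± 0.47 (0.22 to 2.08; unadjusted p = 0.0157, adjusted p = 0.809, limma), which did not pass the test. Under imiquimod the difference was 0.47 (-0.46 to 1.40; adjusted p = 0.693), and the groups overlapped.

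**Figure D2:**
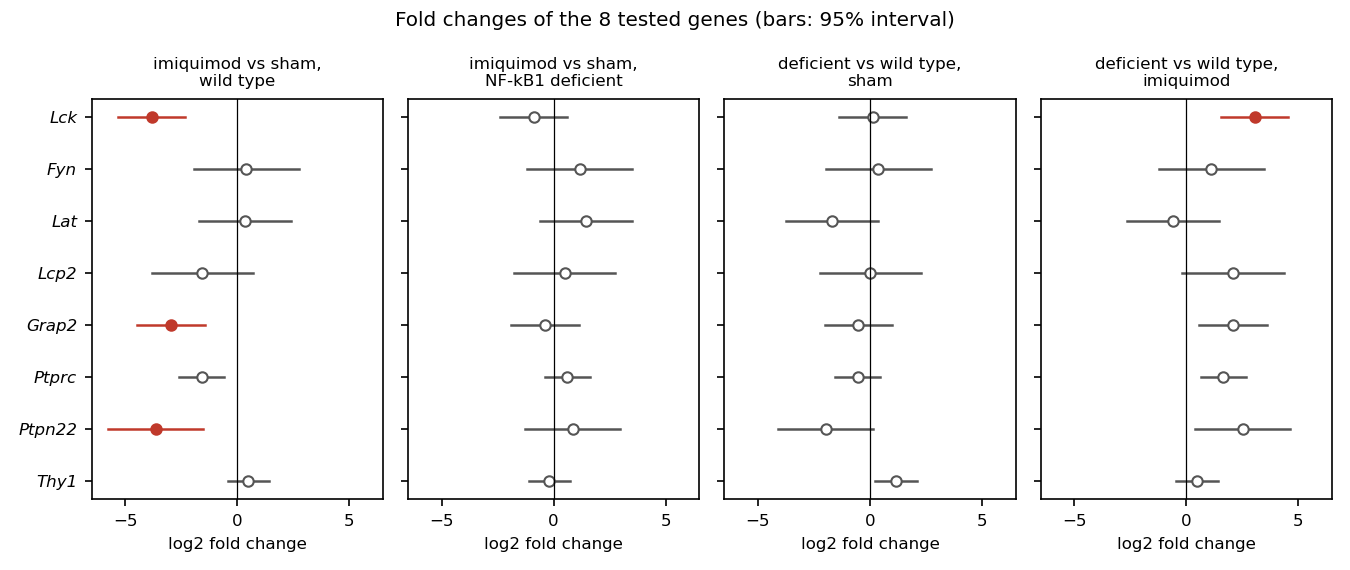
Log2 fold change of the 8 tested genes in the 4 comparisons, with 95% intervals; filled red points passed an adjusted p of 0.05 and open points did not. Lck, Grap2 and Ptpn22 passed in wild-type cells after imiquimod, and Lck between genotypes under imiquimod.

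By comparison, the wild-type imiquimod response held 3 of the 8 tested members among the called genes, all lower (Lck, Grap2 and Ptpn22), where 3.25% of all tested genes were called in either direction and 1.59% called lower (26 higher and 25 lower, or 19 and 29 with library totals made equal). For 4 of 8 the wild-type groups did not overlap, all lower (Lck, Grap2, Ptpn22 and Ptprc), against 21.5% of all genes in either direction and 10.8% lower. The median fold change of the 8 was -1.57, that of all tested genes -0.07. At an unadjusted p under 0.05 there were 4 of 8 members, against 19.9% of all genes (313). The members and the other gene lists were chosen with earlier results of these data known. Their shares and medians, here and below, therefore describe the lists and cannot test whether they changed more often than other genes. By role, the kinases stood at -3.82 (Lck) and 0.41 (Fyn), the adaptors at -2.96 (Grap2), -1.56 (Lcp2) and 0.34 (Lat), and the phosphatases at -3.64 (Ptpn22) and -1.59 (Ptprc); differences between members were not tested.

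In NF-kB1-deficient cells the imiquimod response held 0 called members, and 0% of all genes were called (0 of 1571 with limma). At an unadjusted p under 0.05 there were 0 of 8 members and 53 genes in all, which is 3.37%. Groups of 1 member (Lck, lower) did not overlap, against 11.7% of all genes, and the median fold change was 0.55 for the 8 and 0.14 for all. Under sham the genotypes also gave 0 called members and 0% of all genes; 1 of 8 members, Thy1, had an unadjusted p under 0.05, against 6.11% of all genes (96), and the same 1 had groups that did not overlap, against 9.36%. The medians were -0.25 for the 8 and -0.02 for all.

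Between genotypes under imiquimod 1 of 8 members was called, Lck, which was higher in NF-kB1-deficient cells, where 1.78% of all genes were called and 1.27% called higher (20 higher and 8 lower, or 25 and 5 with library totals made equal). For 5 of 8 members (Lck, Fyn, Grap2, Ptprc and Ptpn22) the NF-kB1-deficient libraries all lay above the wild-type ones, against 10.8% of all genes in that direction, and 4 of 8 had an unadjusted p under 0.05, against 14.3% (225). Fold changes of the uncalled members ran from -0.60 (Lat) to 2.51 (Ptpn22), with a median of 1.85 for the 8 and 0.13 for all genes. This comparison and the wild-type response share the wild-type imiquimod libraries, so their values for a member are not independent of each other. The NF-kB1-deficient imiquimod libraries were also all deeper than the wild-type imiquimod ones, and the part of depth was not tested.

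The difference between the imiquimod responses of both genotypes was tested directly, as the NF-kB1-deficient minus the wild-type fold change. It was 2.20 ± 0.72 for Ptprc (0.77 to 3.63; adjusted p = 0.208), 4.49 ± 1.52 for Ptpn22 (1.49 to 7.49; adjusted p = 0.215), 2.93 ± 1.08 for Lck (0.80 to 5.06; adjusted p = 0.290) and 2.58 ± 1.09 for Grap2 (0.44 to 4.72; adjusted p = 0.337). None of the 8 was called (0 of 8 with limma, and 4 of 8 at an unadjusted p under 0.05), where 0.446% of all genes were called and 10.8% had such a p. The remaining differences were 2.05 for Lcp2, 1.10 for Lat, 0.74 for Fyn and -0.68 for Thy1. A response called in wild-type cells and not called in NF-kB1-deficient cells is therefore not shown to differ between them for any of these genes.

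**Figure D3:**
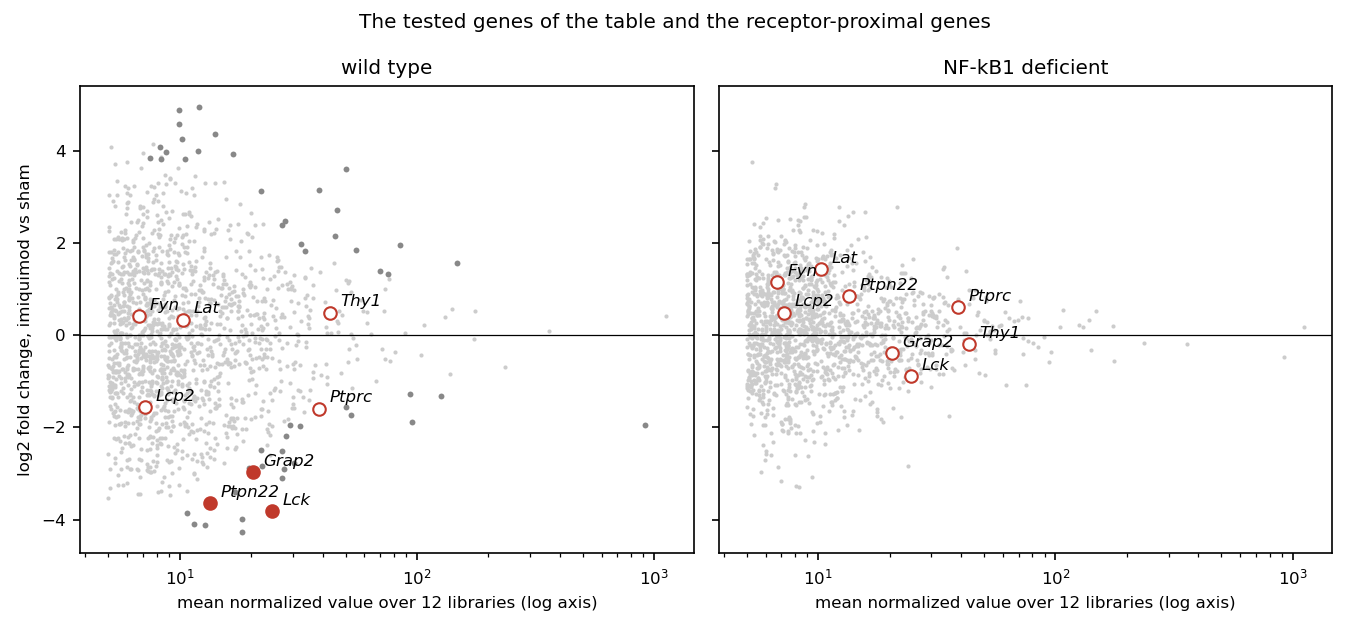
Log2 fold change after imiquimod against the mean normalized value (log axis) of the 1571 tested genes, in wild-type (left) and NF-kB1-deficient cells (right); light grey points are genes not called, dark grey points called genes, and red circles the 8 members, filled where called. The 3 filled circles lie among the called genes that were lower in wild-type cells, and the right panel has 0 called genes.

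Summed over the 9 genes, the members took 0.546%, 0.615% and 0.604% of the library total in wild-type sham, 0.683%, 0.596% and 0.443% in NF-kB1-deficient sham, 0.311%, 0.202% and 0.200% in wild-type imiquimod and 0.512%, 0.633% and 0.545% in NF-kB1-deficient imiquimod libraries. The wild-type imiquimod libraries were the 3 lowest. Without Lck, Grap2 and Ptpn22, the other 6 summed to normalized values of 111, 68.3 and 67.3 there and of 84.0 to 158 in the other 9 libraries, so replicate 1 then fell inside their range. In sorted cells measured in bulk, fewer cells with a transcript and less of it per cell cannot be told apart.

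Other values also set the wild-type imiquimod group apart. Actb was higher there than in every other library, and Tcrd and Irf1, described below, were lower. The receptor and CD3 genes summed to 43.2, 102.6 and 92.4 in that group and to at least 103.8 in every other library. The sums of plasma cell and of myeloid and dendritic cell markers did not set the group apart. Actb, the cytoplasmic actin gene, was at 164, 201 and 213 there and at 97.0 to 153 in the other libraries. Plasma cell markers summed to 21.5, 15.8 and 6.93 (3 of 6 genes above 0; Jchain, Mzb1 and Tnfrsf17 at 0), against 0 to 6.21 in wild-type sham, 0 in NF-kB1-deficient sham and 2.25 to 21.7 in NF-kB1-deficient imiquimod libraries. Myeloid and dendritic cell markers summed to 0, 17.7 and 21.8, all from 1 of 12 genes, Cst3, with Lyz2, Csf1r and Itgax at 0, against 2.48 to 4.88 in wild-type sham, 0 to 3.15 in NF-kB1-deficient sham and 0 to 3.24 in NF-kB1-deficient imiquimod libraries. Their part in the values of Lck, Grap2 and Ptpn22 was not tested.

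The receptor itself was described by 15 genes of its chains and of CD3, of which 5 could be tested. In wild-type cells 1 of the 5 fell after imiquimod, where 1.59% of all genes were called lower, and 4 of 5 fold changes were negative, against 51.9% of all genes (median -1.05). That gene was Tcrd (Entrez 110066), the delta chain locus, at 65.8, 68.7 and 76.8 in wild-type sham, 14.1, 30.5 and 19.8 in wild-type imiquimod, 72.8, 66.1 and 40.3 in NF-kB1-deficient sham and 62.8, 53.5 and 58.9 in NF-kB1-deficient imiquimod libraries. Its 3 wild-type imiquimod libraries were the lowest of the 12. The fold change was -1.73 ± 0.43 in wild-type cells (95% interval -2.59 to -0.87; adjusted p = 0.00905, limma), with an adjusted p of 0.0536 without wild-type sham replicate 3 and of 0.0610 without wild-type imiquimod replicate 1. In NF-kB1-deficient cells it was 0.01 (-0.85 to 0.87), and between genotypes under imiquimod 1.46 (0.61 to 2.32; adjusted p = 0.0510).

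Cd3d, a CD3 chain, was at 8.05, 21.2 and 17.4 in wild-type sham and at 0, 0 and 21.8 in wild-type imiquimod libraries, 2 of which were thus at 0 while the third was the highest of the 6. Its fold change was -2.45 ± 1.03 (adjusted p = 0.154), and over the alternative settings it ran from -4.59 (pseudocount of 0.1) to -0.76 (pseudocount of 10). It passed the test in 1 of them, in which wild-type imiquimod replicate 3 was left out (-3.95; adjusted p = 0.0298); with replicate 1 or 2 of that group left out it was -1.69 (adjusted p = 0.359 and 0.324). Of the 5 genes, 0 were called in each of the other 4 comparisons; at an unadjusted p under 0.05 there were 0 in the NF-kB1-deficient response, 0 between genotypes under sham, 3 between them under imiquimod and 2 for the difference of the responses, against 3.37%, 6.11%, 14.3% and 10.8% of all genes.

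Partners at the receptor, 44 further genes that included adaptors, kinases, phosphatases and surface proteins, had 13 tested genes, of which 0 were called in any of the 5 comparisons. At an unadjusted p under 0.05 there were 3 in the wild-type response, 1 in the NF-kB1-deficient response, 3 and 2 between genotypes under sham and imiquimod, and 3 for the difference of the responses. Of all genes 19.9%, 3.37%, 6.11%, 14.3% and 10.8% had such a p, in the same order. In NF-kB1-deficient cells 9 of 13 fold changes after imiquimod were negative (69.2%, against 44% of all genes), with a median of -0.71. In wild-type cells 10 of 13 were negative (76.9%, against 51.9% of all genes), with a median of -1.23. Skap1, an adaptor of the Fyn and integrin pathway, had the lowest p: it was at 20.1, 14.1 and 16.1 in wild-type sham, 3.14, 1.05 and 0 in wild-type imiquimod, 15.4, 24.1 and 0 in NF-kB1-deficient sham and 18.5, 16.1 and 12.6 in NF-kB1-deficient imiquimod libraries. The wild-type groups did not overlap, and the fold change of -3.11 ± 1.08 had an adjusted p of 0.0851. Ptprcap, the CD45-associated protein, had the opposite sign: 0, 7.32 and 0 in wild-type sham, then 7.34, 25.3 and 11.9 after imiquimod, with a fold change of 2.80 ± 1.14 (adjusted p = 0.143).

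Downstream of the receptor 35 genes of calcium, Ras, lipid and NF-kB signalling were listed and 16 tested, with 0 called in any comparison. At an unadjusted p under 0.05 there were 4 in the wild-type response, 2 in the NF-kB1-deficient response, 2 between genotypes under each treatment and 5 for the difference of the responses. The shares of all genes are those just given, and 4 of 16 in the wild-type response is near the 19.9% of all genes. In wild-type cells 11 of 16 fold changes were negative (68.8%, against 51.9% of all genes; median -0.78). Dgka, the kinase that removes diacylglycerol, was at 33.2, 29.6 and 23.6 in wild-type sham and 2.10, 16.8 and 6.93 in wild-type imiquimod libraries, which did not overlap; the fold change was -1.96 ± 0.67 (adjusted p = 0.0835; 0.0193 without wild-type imiquimod replicate 2, and 0.623 with no filter on low values). Pik3r1, a regulatory subunit of PI3 kinase, had a negative fold change after imiquimod in both genotypes. It was at 49.0, 10.3 and 31.1 in wild-type sham and 5.76, 8.95 and 1.98 in wild-type imiquimod libraries (-2.16 ± 0.78; adjusted p = 0.103), and in NF-kB1-deficient cells at 62.7, 54.2 and 42.2 under sham and 8.26, 2.79 and 10.7 under imiquimod (-2.84 ± 0.78; adjusted p = 0.597). In each genotype the groups did not overlap, and neither fold change passed the test.

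**Figure D4:**
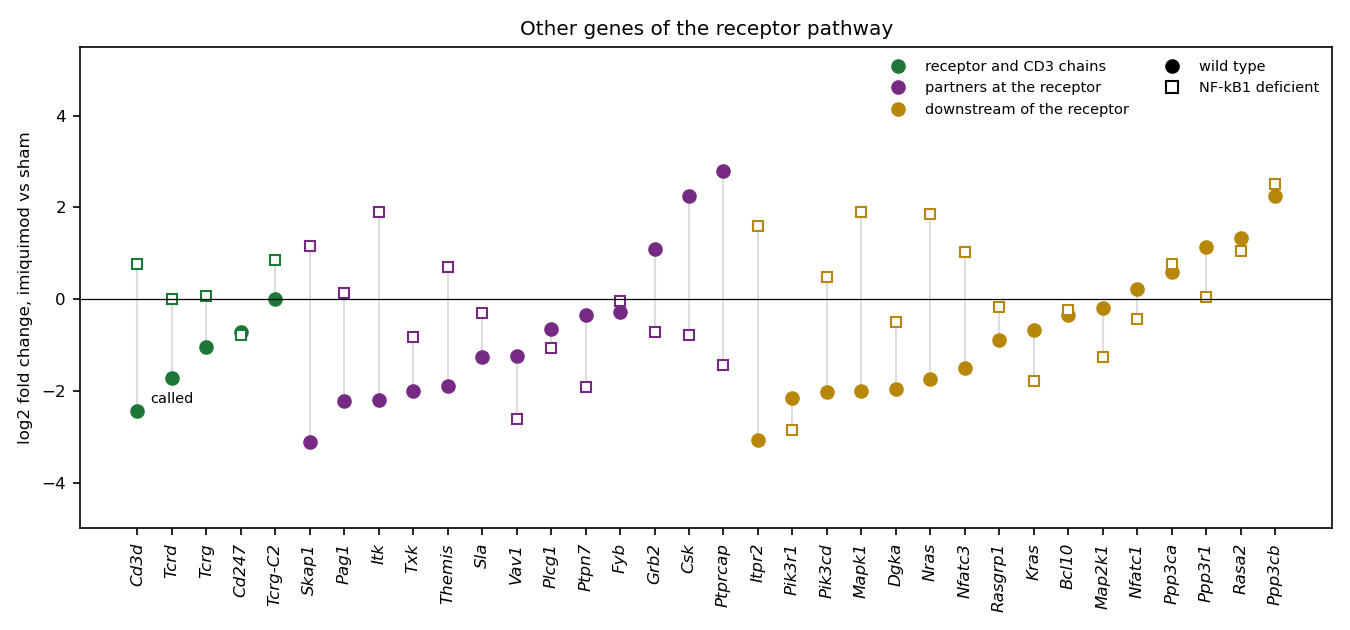
Log2 fold change after imiquimod of the 34 tested genes of the other receptor pathway lists, in wild-type (filled circles) and NF-kB1-deficient cells (open squares), coloured by list and ordered by the wild-type value. Tcrd, marked as called, was the 1 gene that passed the test in wild-type cells, and 0 passed in NF-kB1-deficient cells.

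The genes of most like pattern were sought among 1563 tested non-members. The measure was the root mean square difference of centred log2(normalized value + 1) values over the 12 libraries. Within each library all genes share its depth and normalization. For Lck the nearest genes were Ube2h, a ubiquitin-conjugating enzyme (0.732), Arhgap45 (0.736), and Sp100, a nuclear body protein (0.849). A flat line lay 1.74 from Lck. Arhgap45 and Sp100 each stood at 1.05, 0 and 1.98 in the wild-type imiquimod libraries, their 3 lowest values. Ube2h was at 0, 0 and 7.92 there, the last of which lay inside the range of the NF-kB1-deficient imiquimod libraries (7.14 to 17.5). Arhgap45 was at 27.7, 38.7 and 27.3 in wild-type sham and at 20.6, 8.76 and 8.81 in NF-kB1-deficient sham libraries, groups that did not overlap, whereas those of Lck did. Nearest to Grap2 were Elmo1 (0.578), Slc38a2 (0.604) and the interferon regulatory factor Irf1 (0.622; flat line 1.26), and nearest to Ptpn22 Ubn2 (0.776), Rnf2 (0.790) and Setd5 (0.855; flat line 1.76). Irf1 was at 20.1, 19.0 and 30.4 in wild-type sham, 2.10, 7.37 and 1.98 in wild-type imiquimod, 28.7, 16.4 and 10.1 in NF-kB1-deficient sham and 31.5, 21.7 and 16.2 in NF-kB1-deficient imiquimod libraries.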

How the data were processed

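Trizol RNA went into QuantSeq FWD libraries, per the labels' protocols, a kit that reads 1 fragment near the 3' end of a transcript, so values do not grow with transcript length. Reads were placed on mm10, per the submitters' processing notes. No aligner, counter, strand setting or normalization method is named in the sources used here. The authors deposited log2 normalized read numbers for 12 libraries. They were taken back to the linear scale; a gene at 0 is listed at 0. Low values fall on steps, from which the worth of 1 read and the reads per library were estimated. In the 5 libraries where 1 read was worth under 1, a listed 0 can hide 1 read (in wild-type sham replicate 2, at 0.488 a read, also 2 reads). Under 20 reads 71.0% to 80.3% of values were whole within 0.01 read, too few for a count test. Depths are estimates, without molecular identifiers. Columns matched sample titles, and no 2 libraries held identical values.

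The limma package (3.58.1; R 4.3.3, tables read by package data.table, version 1.17.8) was fitted to log2(normalized value + 1), a scale that understates changes of low genes, for genes with a mean of at least 5 (1571). There was 1 coefficient per group and eBayes had trend and robust set (8 residual and a median of 145 prior degrees of freedom). Benjamini-Hochberg adjustment ran over all 1571 genes, and an adjusted p under 0.05 was a call. The code was tested on simulated data. The 9 genes and the lists were chosen with earlier results of these data known. All 9 are named, with every called gene of 4 pathway lists and the 2 genes of each list with the lowest p in the wild-type response, and the 3 tested genes of most like pattern for each called member. Alternatives were other pseudocounts, filters, scaling, samples in the fit, spread model, a replicate block and each library left out. Python 3.11.15 with numpy 2.4.6, pandas 2.3.3 and matplotlib 3.10.9 did the rest.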

Additional observations from a re-analysis of the deposited data

How the results depend on the processing

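Of 580 combinations of the 40 member fold changes with an alternative setting, 537 kept their sign and their side of the threshold, 21 lost a call, 6 gained one and 16 changed sign. The wild-type imiquimod response had 3 members called. There were 4 with equal totals, and 1 with no filter on low values, with only the libraries compared and without trend or robust. When libraries were left out in turn there were 1 to 3 (1 without wild-type sham replicate 3 or wild-type imiquimod replicate 1). Between genotypes under imiquimod 1 member was called; there were 0 with a pseudocount of 10, with no filter, with only the libraries compared and without trend or robust, 2 with a mean of at least 20 and with equal totals, and 0 to 2 when libraries were left out (0 without any 1 of the NF-kB1-deficient imiquimod replicates, 2 without wild-type imiquimod replicate 2). The other 3 comparisons had 0 members called in every setting.

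Changed signs were all of uncalled fold changes. With a pseudocount of 10 the sham difference of Lcp2 between genotypes was -0.0082. With libraries left out in turn it ran from -0.50 to 0.42, that of Lck from -0.26 to 0.32 and that of Fyn from -0.66 to 1.499. In the same way the wild-type response ran from -0.53 to 1.31 for Fyn and from -0.076 to 0.78 for Lat, the NF-kB1-deficient response from -0.54 to 1.96 for Ptpn22 and from -0.46 to 0.10 for Thy1, and the difference of the responses from -0.38 to 1.77 for Fyn. The cause was not tested.

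The number of all genes called in the wild-type response was 51, and 26 with a pseudocount of 0.1, 11 with no filter, 28 with only the libraries compared, 18 without trend or robust, and 23 to 72 with libraries left out (23 where this was wild-type sham replicate 3 and 24 where it was wild-type imiquimod replicate 1). Between genotypes under imiquimod it was 28, and 18, 3, 17 and 0 in the same 4 settings, and 4 to 42 with libraries left out. For the difference of the responses it was 7, and 1 with no filter, 13 with a mean of at least 20, 0 without trend or robust and 2 to 12 with libraries left out. Equal totals moved the median fold change of all genes from -0.07 to -0.19 in the wild-type response and from 0.13 to 0.32 between genotypes under imiquimod; the called members kept their direction. The wild-type fold change of Tcrd ran from -2.01 to -1.38 over its settings, which were added after the data were seen; its adjusted p was 0.299 with no filter, 0.0543 with only the libraries compared and 0.175 without trend or robust.

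Libraries of different groups with the same replicate number deviated together only weakly (18 pairs, correlations -0.0098 to 0.061, 0 over 0.1), so they share a number and are not taken as pairs, although 10 of 12 libraries correlated best with their own number. With a replicate block the members called were 3 in the wild-type response and 1 between genotypes under imiquimod, as without it, and 55 and 32 of all genes were called. Over all tested genes the median 95% interval of a wild-type fold change reached 2.21 to each side. Among the members it was narrowest for Thy1 (-0.43 to 1.43) and widest for Fyn (-1.92 to 2.74). Changes smaller than the reach of a gene's own interval could mostly not be detected. Some larger ones were not called either, such as that of Ptpn22 between genotypes under imiquimod (2.51, interval 0.39 to 4.63).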
